A study of Mus musculus with 4 samples.

Results

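The integrin subunits that epithelial cells use to hold on to their matrix were examined as 10 genes, Itga2, Itga3, Itga5, Itga6, Itgav, Itgb1, Itgb3, Itgb4, Itgb5 and Itgb6, out of 22180 named genes on the array. They were taken by symbol from the platform annotation, using probe sets with a single gene symbol and, where a gene had several, the probe set with the highest mean. RNA levels were read on Affymetrix mouse arrays in cell lines derived from MMTV-NIC mammary tumours (FVB strain, female), a model where the mouse mammary tumour virus promoter drives one transcript that encodes both ErbB2 and Cre recombinase. Both groups carry that transgene and were grown in DMEM with 5% FBS, EGF, hydrocortisone, insulin and bovine pituitary extract. The GSK126 group (n = 2 arrays) received 2 µM GSK126 for 96 h, and the DMSO group (n = 2 arrays) received the vehicle for the same time. GSK126 inhibits EZH2, the enzyme that writes the repressive histone mark H3K27me3. The design text speaks of lines and the titles only of replicates, so whether the replicates are separate lines or cultures of a single line is not known, and p-values reflect the spread among the arrays at hand, possibly technical.

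An integrin is a pair of membrane proteins, one alpha and one beta subunit, that binds matrix outside the cell and links it through talin, kindlin and other adaptors to actin inside. The alpha and beta chains together set which ligand is bound. The Itga2 product with the Itgb1 product binds collagen, the Itga3 and Itga6 products bind laminins of the basement membrane, and the Itga5 product with the Itgb1 product binds fibronectin. The Itgav product pairs with the Itgb1, Itgb3, Itgb5 or Itgb6 products and binds proteins with an arginine-glycine-aspartate (RGD) motif, such as fibronectin and vitronectin. In mammary epithelium, laminin-binding integrins anchor the basal side of the cells, and the Itga6 and Itgb4 products form the core of hemidesmosomes.

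Values are log2 expression, changes are GSK126 minus DMSO on that scale with their standard error (SE), and a gene is said to have passed when its Benjamini-Hochberg adjusted p over all genes was under 0.05 in limma. Over all genes, 96 of 22180 passed, which is 0.433% (58 higher and 38 lower, or 55 higher and 62 lower with each array centred on its median), and the median change was -0.0077. Array-to-array correlations lay between 0.981 and 0.988, and the GSK126 arrays correlated with each other (0.981) less than GSK126 replicate 1 did with either DMSO array (0.987 and 0.986). The labelled mammary epithelial origin was checked against markers: Krt8, Krt18, Cdh1 and Epcam had levels of 10.4 to 11.7 in every array, whereas Krt19 was at 4.63 and 4.62 in the GSK126 arrays against 4.70 and 4.89 in the DMSO arrays. Of the 5 basal markers measured, Trp63 and Krt17 were dim in both groups, that is, below the 40th percentile of gene means (4.77), and Krt14 was at 5.58 and 5.30 in the GSK126 arrays against 5.74 and 6.16 in the DMSO arrays. The other basal markers, Acta2 and Myh11, were not dim, with Acta2 at 5.78 and 5.79 in the GSK126 arrays against 5.75 and 5.68 in the DMSO arrays, and Myh11 at 5.55 and 5.44 against 5.66 and 5.51. Of the 9 leukocyte markers measured, 5 were dim in both groups, among them Ptprc, while Cd14 and Cd68 were not, and the mean log2 level over that list was 5.65 in both GSK126 arrays against 5.59 and 5.54 in the DMSO arrays.

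None of the 10 subunits passed in limma, against 0.433% of all genes. The adjusted p nearest to the threshold was that of Itgb6 (0.130). At an unadjusted p under 0.05 there was 1 higher subunit, Itgb6, where the share over all genes was 4.64%, and 1 lower subunit, Itga6, where it was 5.93%. The groups did not overlap for 3 of the 10 (1 higher and 2 lower with GSK126), against 40.1% of all genes. The mean was higher with GSK126 for 7 of the 10 and lower for 3, against 48.0% of all genes higher, although Itga3 and Itgb5 turned lower with centred arrays, and the median change over the 10 was 0.044. That median ran from -0.029 to 0.096 when 1 array at a time was left out. Changes were within 0.1 on the log2 scale for 5 of the 10. The 95% interval of the change excluded a doubling or a halving for all 10, and a 1.5-fold change either way for 7. The other 3 were Itga5, Itgb3 and Itgb6.

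**Figure D1:**
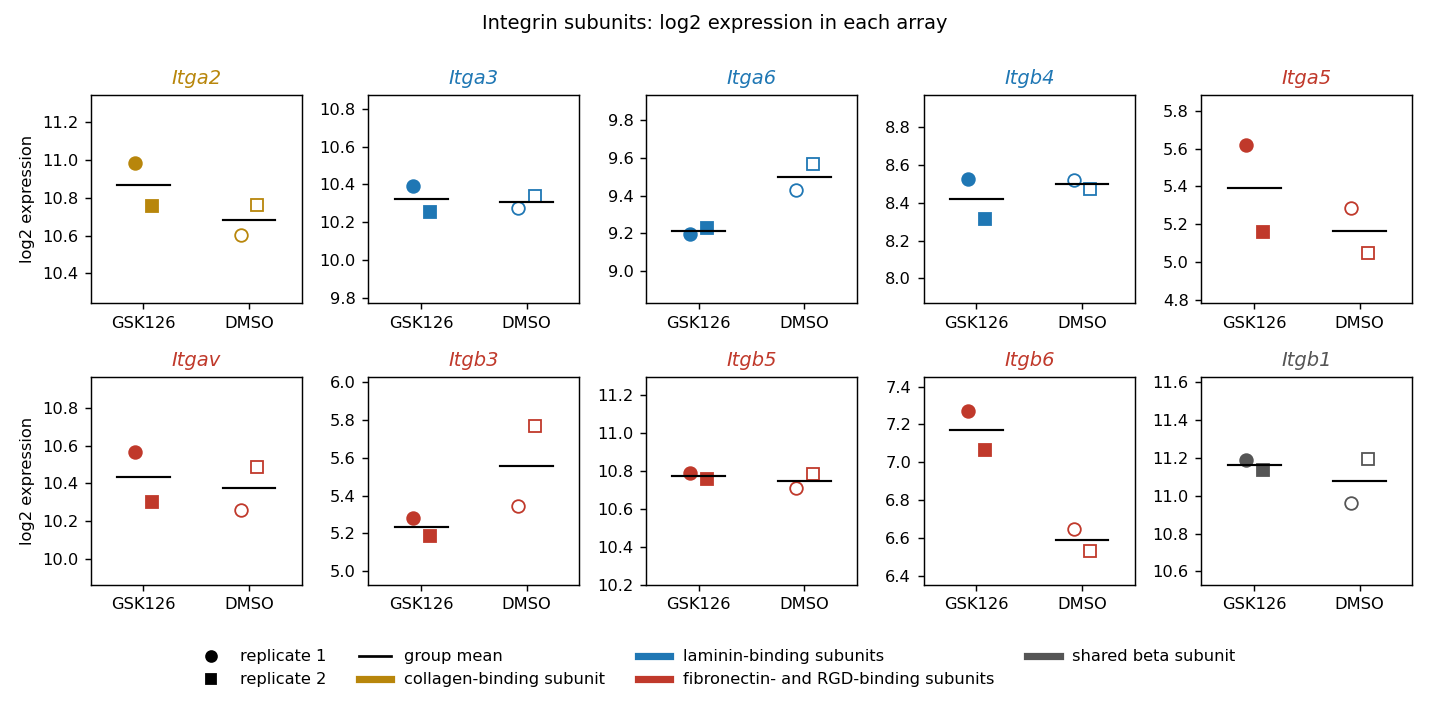
Log2 expression of each subunit in each array, GSK126 at the left with filled symbols and DMSO at the right with open symbols; circles are replicate 1, squares replicate 2, bars group means (n = 2), and every panel spans the same log2 range. The groups are apart for Itgb6, Itga6 and Itgb3 and overlap for the other 7 subunits.

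Itgb6 had the widest difference of the 10. It encodes the epithelial beta subunit that pairs with the Itgav product, binds fibronectin and the latency peptide of TGF-beta, and is known for activating that cytokine. It stood at 7.27 and 7.06 in the GSK126 arrays, against 6.65 and 6.53 in the DMSO arrays. Both GSK126 arrays were above both DMSO arrays, with a gap of 0.42 between the groups that is wider than the 0.21 between the GSK126 arrays and the 0.12 between the DMSO arrays. The change was 0.58 (SE 0.12, 95% interval 0.31 to 0.85), or 1.49-fold with an interval of 1.24 to 1.80. It did not pass over all genes in limma (adjusted p = 0.130, unadjusted p = 0.00129). Its p ranked 219th of 22180, and 454 genes, or 2.05%, had a change at least as large in either direction. Leaving out 1 array gave changes between 0.47 and 0.68.

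The DNA before the Itgb6 start is shown beside that before Itgb5, whose change was near 0, because both encode partners of the Itgav product and because H3K27me3 is known to gather at silent promoters rich in CpG. The windows are the 250 bases upstream of the outermost annotated start (RefSeq, GRCm38.p6), written 5′ to 3′ on the gene's strand, with each CpG in capitals. The Itgb6 window is chr2:60722604-60722853 on the minus strand and the Itgb5 window is chr16:33829415-33829664 on the plus strand.
Itgb6: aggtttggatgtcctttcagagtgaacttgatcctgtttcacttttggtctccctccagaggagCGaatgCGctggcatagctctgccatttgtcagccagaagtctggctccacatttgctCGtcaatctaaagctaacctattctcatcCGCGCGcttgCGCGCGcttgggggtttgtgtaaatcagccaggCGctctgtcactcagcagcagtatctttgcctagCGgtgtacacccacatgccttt
Itgb5: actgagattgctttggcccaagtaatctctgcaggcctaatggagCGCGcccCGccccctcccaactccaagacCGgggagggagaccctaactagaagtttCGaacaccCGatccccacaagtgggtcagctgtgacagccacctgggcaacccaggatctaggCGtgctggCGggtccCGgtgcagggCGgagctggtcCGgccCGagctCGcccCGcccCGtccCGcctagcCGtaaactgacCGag

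The Itgb6 window held 11 CpGs and the Itgb5 window 18. Of 32851 annotated promoter windows of that length, 35.6% held at least 11 and 21.7% at least 18, with a median of 6. A second, inner Itgb6 window held 3. Windows were found for 7 of the subunits, 9 windows in all, with 3 to 22 CpGs. Itga6, Itgb3 and Itgb4 had no entry. The GC box GGGCGG, searched on both strands and itself containing a CpG, occurred 3 times in the Itgb5 window and 0 times in the Itgb6 window. It was in 5 of the 9 subunit windows, belonging to 4 of the 7 subunits, against 32.7% of all windows. The AP-1 motif TGACTCA, also searched on both strands, was in 0 of the 9, against 4.46% of all. Histone marks were not measured here.

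Among the other subunits that bind fibronectin and RGD proteins, no common direction was seen. Itga5, the alpha chain of the main fibronectin receptor, was at 5.62 and 5.16 in the GSK126 arrays, against 5.29 and 5.05 in the DMSO arrays. The groups overlapped, since the lower GSK126 array lay between the DMSO arrays, and the change was 0.22 (SE 0.19, adjusted p = 0.736 in limma). Without GSK126 replicate 1 it was -0.0065.

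Itgb3, the beta subunit of the vitronectin receptor of osteoclasts and endothelium, was at 5.28 and 5.19 in the GSK126 arrays, against 5.34 and 5.77 in the DMSO arrays. Both GSK126 arrays were lower, but the gap of 0.06 was small beside the 0.43 between the DMSO arrays. The change was -0.32 (SE 0.17, 95% interval -0.72 to 0.08, adjusted p = 0.560 in limma), and -0.11 without DMSO replicate 2. The signals of Itga5 and Itgb3 lay near the level taken as dim, and their SEs were the 2 largest of the 10.

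Itgav, the alpha chain shared by the RGD receptors, was at 10.57 and 10.30 in the GSK126 arrays, against 10.26 and 10.49 in the DMSO arrays. Each group held a high and a low array, and the change was 0.060 (SE 0.12, adjusted p = 0.921 in limma). A second Itgav probe set was dim throughout, at 3.66 and 3.76 in the GSK126 arrays against 3.81 and 4.12 in the DMSO arrays, and the average of both probe sets gave -0.098.

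Itgb5, which pairs with the Itgav product and binds vitronectin, had the smallest SE of the 10. It was at 10.79 and 10.76 in the GSK126 arrays, against 10.71 and 10.79 in the DMSO arrays. The arrays of both groups lay within 0.1 of each other. The change was 0.028 (SE 0.080, 95% interval -0.16 to 0.21, adjusted p = 0.954 in limma), and the difference between the changes of Itgb5 and Itgb6 was not tested.

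The laminin-binding subunits did not move as one either. Itga6, the alpha chain of hemidesmosomes and a marker of mammary basal and progenitor cells, was at 9.20 and 9.23 in the GSK126 arrays, against 9.43 and 9.56 in the DMSO arrays. Both GSK126 arrays were below both DMSO arrays, with a gap of 0.20 that is wider than the 0.03 and 0.14 between arrays of the GSK126 and DMSO groups. The change was -0.28 (SE 0.09, 95% interval -0.49 to -0.08), or 1.22-fold lower with GSK126, and it did not pass over all genes in limma (adjusted p = 0.319, unadjusted p = 0.0123). It lay between -0.35 and -0.21 when 1 array at a time was left out.

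Itgb4, which has a long cytoplasmic tail that binds plectin and pairs only with the Itga6 product, was at 8.52 and 8.32 in the GSK126 arrays, against 8.52 and 8.47 in the DMSO arrays. The higher GSK126 array equalled the higher DMSO array to 2 decimals, and the change was -0.079 (SE 0.10, adjusted p = 0.847 in limma). It was 0.025 without GSK126 replicate 2. Itga3, the alpha chain of the receptor for laminin-332 and laminin-511, was at 10.39 and 10.26 in the GSK126 arrays, against 10.28 and 10.34 in the DMSO arrays. The GSK126 arrays lay on either side of the DMSO arrays, and the change was 0.015 (SE 0.086, 95% interval -0.18 to 0.22, adjusted p = 0.978 in limma).

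The collagen-binding class holds Itga2 alone, the alpha chain of the main epithelial collagen receptor. It was at 10.98 and 10.76 in the GSK126 arrays, against 10.60 and 10.76 in the DMSO arrays. GSK126 replicate 1 was the highest of the 4, while GSK126 replicate 2 and DMSO replicate 2 were level to 2 decimals. The change was 0.19 (SE 0.10, 95% interval -0.055 to 0.43, adjusted p = 0.578 in limma), and 0.075 without GSK126 replicate 1.

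Itgb1, the beta chain shared by the collagen, laminin and fibronectin receptors, was at 11.19 and 11.14 in the GSK126 arrays, against 10.96 and 11.20 in the DMSO arrays. The GSK126 arrays fell between the DMSO arrays. The change was 0.083 (SE 0.099, 95% interval -0.15 to 0.31, adjusted p = 0.837 in limma).

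**Figure D2:**
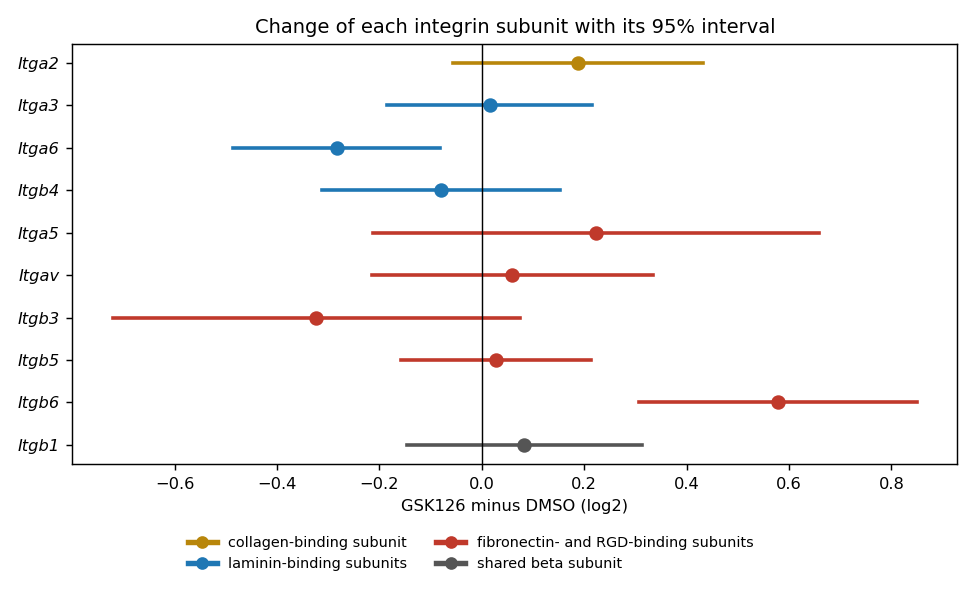
GSK126 minus DMSO on the log2 scale for each subunit (point) with its 95% interval from limma (line), coloured by ligand class. The intervals of Itgb6 (0.31 to 0.85) and Itga6 (-0.49 to -0.08) leave out 0, and those of the other 8 include it.

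Taken by ligand class, the mean change was 0.19 for the collagen-binding subunit, -0.12 for the 3 laminin-binding subunits and 0.11 for the 5 fibronectin- and RGD-binding subunits, with 0.083 for Itgb1. Of the laminin-binding subunits 1 was higher and 2 were lower in mean, and of the fibronectin- and RGD-binding subunits 4 were higher and 1 was lower, with Itga3 and Itgb5 turning lower when arrays were centred. With each array set against the DMSO mean, the laminin-binding minus the fibronectin- and RGD-binding mean was -0.28 and -0.18 in the GSK126 arrays, against 0.012 and -0.012 in the DMSO arrays. The GSK126 arrays were therefore both lower in this difference, which averaged -0.23. Without Itgb6 it was -0.17 and -0.059 in the GSK126 arrays, against 0.036 and -0.036 in the DMSO arrays. It then averaged -0.11 over the remaining 7 genes. The laminin-binding mean in that value still holds Itga6 (-0.28), beside Itga3 (0.015) and Itgb4 (-0.079). No test was made of the class difference, since genes of a class are not replicates. Also, an exact permutation of 2 against 2 arrays cannot go below a two-sided p of 0.333.

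Partner chains had changes of different size, although the differences between them were not tested: 0.58 for Itgb6 and 0.060 for its partner Itgav, and -0.28 for Itga6 and -0.079 for its partner Itgb4. Arrays of a group also differed in one direction for most subunits: GSK126 replicate 1 was above GSK126 replicate 2 for 9 of the 10, all but Itga6, against 56.7% of all genes. DMSO replicate 2 was above DMSO replicate 1 for 7 of the 10, against 47.5% of all genes. The direction of 6 subunits, Itga3, Itga5, Itgav, Itgb1, Itgb4 and Itgb5, changed when some single array was left out, and that of Itga2, Itga6, Itgb3 and Itgb6 did not.

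**Figure D3:**
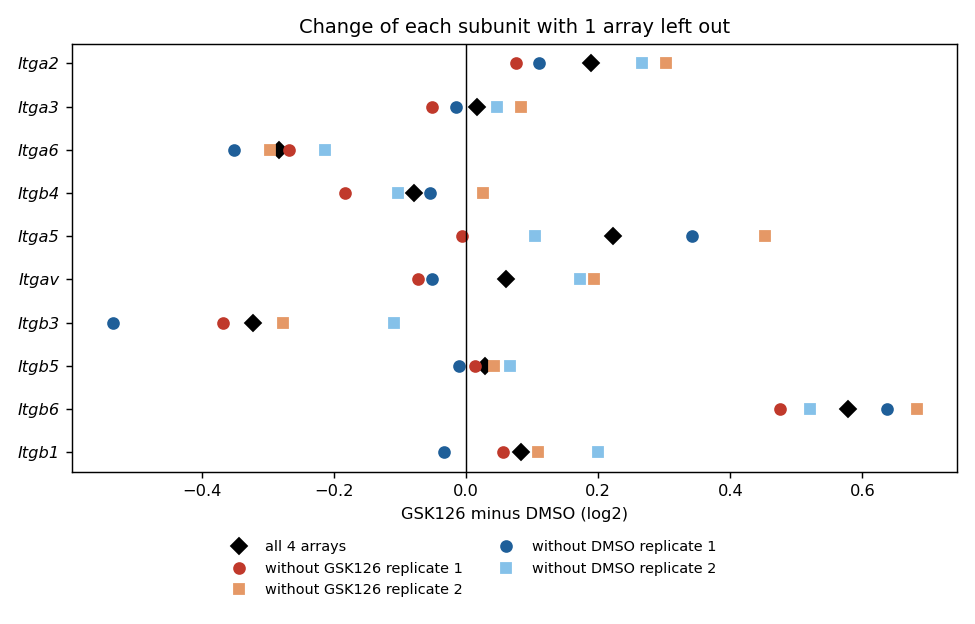
GSK126 minus DMSO on the log2 scale for each subunit with all 4 arrays (diamonds) and with 1 array left out (red and orange for GSK126 replicates, dark and light blue for DMSO replicates). Itgb6 stayed between 0.47 and 0.68 and Itga6 between -0.35 and -0.21, while 6 subunits crossed 0.

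The integrin subunits outside these 10 gave 0 calls among 15 measured, against 0.433% of all genes. At an unadjusted p under 0.05 in limma, 1 was higher (Itgb2) and 0 lower, where the shares over all genes were 4.64% and 5.93%. The median change of the 15 was -0.037, and 7 of them were dim in both groups, among them the leukocyte alpha chains Itgam and Itgax. Itgb8, a further partner of the Itgav product that also binds latent TGF-beta, was at 7.79 and 7.55 in the GSK126 arrays, against 7.81 and 7.997 in the DMSO arrays. Its GSK126 arrays were the lower ones, and the change of -0.23 (SE 0.12, adjusted p = 0.539 in limma) had the sign opposite to that of Itgb6. Itgb2, the leukocyte beta chain, was at 6.48 and 6.60 in the GSK126 arrays, against 6.31 and 6.05 in the DMSO arrays (change 0.36, SE 0.13, adjusted p = 0.403 in limma). The macrophage marker Cd68 rose by 1.00 on the log2 scale (adjusted p = 0.010 in limma). That call ended with a replicate block (adjusted p = 0.0614 in limma). It also ended with any 1 array left out, where the change was 0.94 to 1.06. Other myeloid markers went both ways, with Csf1r (0.12) and Cd14 (0.11) higher in mean. Adgre1 (-0.16), Itgam (-0.15) and Itgax (-0.27) were lower in mean and dim in both groups. Ptprc had a difference of -0.0098 and was dim in both groups. The part of leukocyte genes in the Itgb2 value was not tested. In bulk RNA, more cells of a type and more RNA per cell cannot be told apart.

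The ligands of the RGD-binding integrins held 2 of the calls. Fn1, which encodes fibronectin, rose to 6.82 and 6.48 in the GSK126 arrays, against 5.44 and 5.32 in the DMSO arrays, 2.41-fold (adjusted p = 0.0240 in limma). Of the 8 fibroblast markers measured, 6 had higher means with GSK126, against 48.0% of all genes. In limma 0 passed, against 0.433% of all genes. At an unadjusted p under 0.05, 2 were higher (Pdgfra, 0.45, and Thy1, 0.35) and 0 lower, against 4.64% and 5.93% of all genes. Dcn (-0.29) and Col1a1 (-0.12) had lower means. The mean log2 level of the 8 was 4.90 and 4.79 in the GSK126 arrays, against 4.81 and 4.70 in the DMSO arrays. Dcn and Lum were dim in both groups and Pdgfra in the DMSO group. The part of these markers in the Fn1 value was not tested. Tgfb3, whose latency peptide carries an RGD motif that the Itgav-Itgb6 pair binds, fell to 9.57 in both GSK126 arrays, against 10.12 and 10.14 in the DMSO arrays, and was 1.48-fold lower (adjusted p = 0.0378 in limma). Arrays of a group lay close together for Tgfb3, and its groups were 0.56 apart in mean. Over the 8 ligands measured, 1 was called higher and 1 lower, against 0.261% and 0.171% of all genes. The median change was 0.23, against -0.0077 over all genes.

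The ligand list was chosen with earlier results of these data known, so its counts and median beside those of all genes are a description only. At an unadjusted p under 0.05, 4 of these 8 ligands were higher and 2 lower, where the shares over all genes were 4.64% and 5.93%. Besides Fn1 and Tgfb3 they were Thbs1 (0.48, adjusted p = 0.0891), Tnc (0.54, adjusted p = 0.397) and Ccn1 (0.33, adjusted p = 0.228) with higher means and Npnt (-0.62, adjusted p = 0.181) with a lower one, all from limma and named after their values were seen. Thbs1, Tnc and Ccn1 encode matrix proteins with integrin-binding sites, and Npnt encodes nephronectin, a ligand of the Itga8 product. Tgfb1, the other TGF-beta whose latency peptide has an RGD motif, was at 10.45 and 10.42 in the GSK126 arrays, against 10.43 and 10.20 in the DMSO arrays, which overlapped (change 0.12, adjusted p = 0.723 in limma).

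Laminin and collagen chains held 0 calls in limma, among 10 and 9 genes measured, against 0.433% of all genes. At an unadjusted p under 0.05 either list held 0, against 10.6% of all genes. The median change was -0.0071 for laminin chains and 0.055 for collagen chains. Lama3, the alpha chain of laminin-332, was at 6.24 and 5.92 in the GSK126 arrays, against 5.84 and 5.75 in the DMSO arrays (change 0.28, adjusted p = 0.547 in limma). The difference was -0.20 for Lama4 (adjusted p = 0.505), 0.22 for Col4a6 (adjusted p = 0.690) and -0.18 for Col4a1 (adjusted p = 0.643), all from limma.

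Inside the cell, 1 gene of the talin, kindlin and adaptor list passed. Tns1, which encodes tensin 1, an adaptor that joins the tail of beta integrins to actin in long-lived fibrillar adhesions, rose to 8.39 and 8.09 in the GSK126 arrays, against 7.24 and 7.17 in the DMSO arrays. Both GSK126 arrays were well above both DMSO arrays, and the change was 1.04 (SE 0.12, adjusted p = 0.0227 in limma), or 2.06-fold. Its relative Tns4, which lacks the actin-binding part, was at 10.60 and 10.61 in the GSK126 arrays, against 10.86 and 10.76 in the DMSO arrays (change -0.20, adjusted p = 0.448 in limma). Of the 18 genes measured in this list, 1 was called higher and 0 lower, against 0.261% and 0.171% of all genes. The list's median change was -0.048.

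The calls of Fn1, Tgfb3 and Tns1 each ended when any 1 array was left out, with adjusted p between 0.128 and 0.476 in limma, and their changes then lay at 1.10 to 1.44 for Fn1, -0.57 to -0.55 for Tgfb3 and 0.89 to 1.19 for Tns1. In the fit with a replicate block, adjusted p was 0.0704 for Fn1, 0.152 for Tgfb3 and 0.0708 for Tns1.

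**Figure D4:**
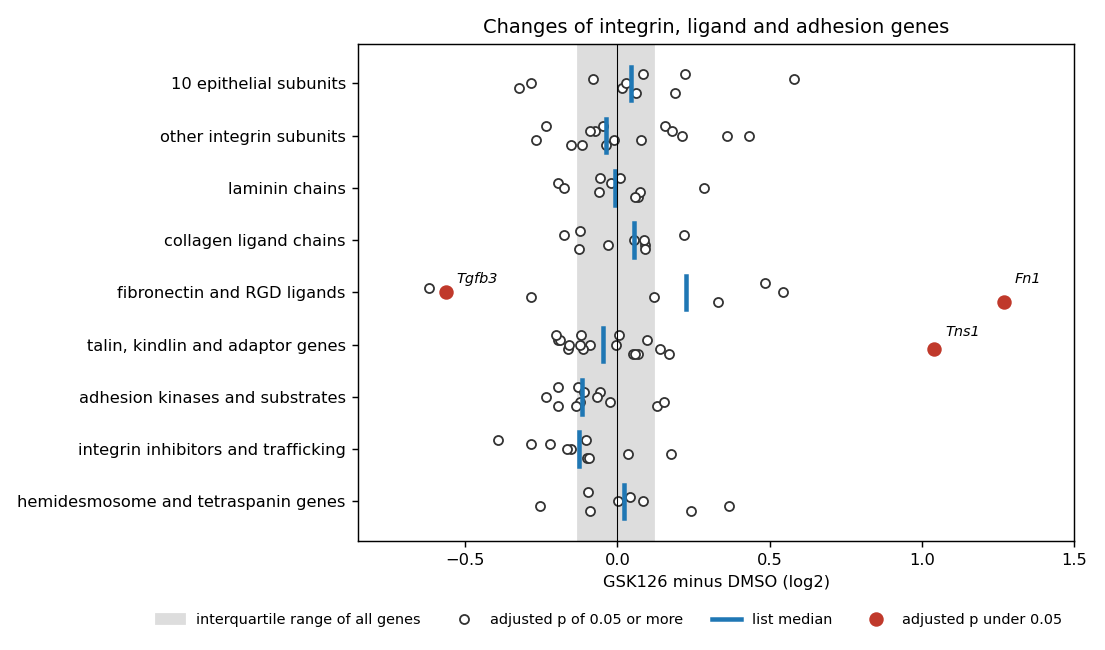
GSK126 minus DMSO on the log2 scale for each measured gene of 9 lists (points; filled where the adjusted p was under 0.05), with the list median (blue bar) and the interquartile range of all genes (grey, -0.13 to 0.12). Fn1, Tns1 and Tgfb3 are the 3 filled points, and none of the 10 epithelial subunits is filled.

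The remaining adhesion genes gave 0 calls in limma, against 0.433% of all genes. Adhesion kinases and their substrates had a median change of -0.12 over 12 genes, with Ptk2 and Nedd9 of that list not measured. Of the 12, 10 were lower and 2 higher in mean, against 48.0% of all genes higher. At an unadjusted p under 0.05 in limma there were 0, against 10.6% of all genes. The kinase gene Fyn had a difference of -0.24 (adjusted p = 0.483 in limma). Genes that restrain or sort integrins had a median of -0.13 over 10 genes, 8 lower and 2 higher in mean. Of the 10 genes, 2 were lower at an unadjusted p under 0.05, against 5.93% of all genes. These were Arrdc3, an arrestin-like gene known in human cells for sending the ITGB4 protein to degradation (-0.39, SE 0.11, adjusted p = 0.279), and Snx17, which returns beta 1 integrins to the surface (-0.28, SE 0.09, adjusted p = 0.335), both from limma. Arrdc3 was at 7.65 and 7.79 in the GSK126 arrays, against 8.01 and 8.23 in the DMSO arrays, with no overlap.

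Hemidesmosome and tetraspanin genes had a median change of 0.021 over 8 genes. Dst, which encodes the hemidesmosome linker BP230 among other forms, was at 7.36 and 7.08 in the GSK126 arrays, against 6.74 and 6.98 in the DMSO arrays (change 0.37, adjusted p = 0.409 in limma). Cd82, a tetraspanin that associates with integrins, was at 7.81 and 7.68 in the GSK126 arrays, against 7.98 and 8.03 in the DMSO arrays (change -0.25, adjusted p = 0.412 in limma). Dst and Cd82 differed in sign, and 1 higher and 1 lower gene stood at an unadjusted p under 0.05, against 4.64% and 5.93% of all genes. Ezh2, the gene of the drug target, had a difference of -0.19 (adjusted p = 0.499 in limma). Since the drug blocks the enzyme, that value does not check the labels.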

How the data were processed

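Labelled total RNA was measured on 4 arrays. The authors deposited log2 values made with Expression Console by robust multi-array averaging (RMA) of core exons, per the labels. Affymetrix Power Tools also appears in the submitters' processing notes, without a version. The authors' build is not given in these sources. Scan dates were not used. Groups and replicate numbers came from the titles.

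Of 41345 probe sets, 23521 carried 1 gene symbol, 1814 several and 16010 none, giving 22180 genes. GSK126 minus DMSO was fitted with limma 3.58.1 in R 4.3.3 (intensity trend, two-sided moderated test, Benjamini-Hochberg over all genes, threshold 0.05, 2 residual and 5.57 prior degrees of freedom). The fit was also run on data simulated from its own model, which does not check that model on these arrays. The number of arrays limits precision, and splice forms are not separated.

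The members, lists and naming rule were chosen with earlier results of these data known. All 10 subunits were named, with each list gene past the threshold, filled up to 2 per list by smallest p. Listed genes without a probe set of 1 symbol were not analysed here, among them Ptk2, Nedd9, Ilk and Lims2. Alternatives were a prior without trend, a robust prior, no dim genes, averaged probe sets, all probe sets, centred arrays, quantile normalization, a replicate block and each array left out. Same-numbered arrays did not deviate together (correlation -0.026), so numbers were not taken as pairs.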

Additional observations from a re-analysis of the deposited data

How the results depend on the processing

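No alternative brought any of the 10 subunits past the threshold in limma. Of 120 refits of single subunits, 109 kept the sign and 11 turned it, 8 of these by leaving out 1 array. Centring each array on its median turned Itga3 to -0.038 and Itgb5 to -0.026, and averaging probe sets turned Itgav to -0.098. Leaving out 1 array gave -0.052 to 0.083 for Itga3, -0.0065 to 0.45 for Itga5, -0.074 to 0.19 for Itgav, -0.034 to 0.20 for Itgb1, -0.18 to 0.025 for Itgb4 and -0.011 to 0.066 for Itgb5. The turned values were -0.052 (Itga3), -0.0065 (Itga5) and -0.074 (Itgav) without GSK126 replicate 1, 0.025 (Itgb4) without GSK126 replicate 2, and -0.016 (Itga3), -0.052 (Itgav), -0.034 (Itgb1) and -0.011 (Itgb5) without DMSO replicate 1. The adjusted p of Itgb6 ran from 0.0681 without dim genes to 0.597 with all probe sets tested, and from 0.380 to 0.473 with 1 array left out. The laminin-binding minus fibronectin- and RGD-binding difference of -0.23 ran from -0.28 to -0.18 with 1 array left out, was -0.20 with averaged probe sets and -0.19 after quantile normalization, and was -0.11 without Itgb6.

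The count over all genes, 96 (58 higher, 38 lower), rested on having 4 arrays. It was 0 to 4 with 1 array left out (0 to 3 higher, 0 to 1 lower): 0 without either GSK126 replicate (2100 and 1771 at an unadjusted p under 0.05), 4 without DMSO replicate 1 and 2 without DMSO replicate 2. It was 0 without the intensity trend (0 higher, 0 lower, 1964 at an unadjusted p under 0.05) and 0 with all probe sets tested (2921 at an unadjusted p under 0.05). Without dim genes, a fit that tested fewer genes, it was 149 with 66 lower. Centring gave 55 higher and 62 lower. With the replicate number as a block it was 10, 8 higher and 2 lower, where the deviations of same-numbered arrays correlated at -0.026. The cause of these moves was not tested.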
